A study of Mus musculus with 8 samples.

Results

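The GIMAP family (GTPases of immunity-associated proteins) was followed across lung group 2 innate lymphoid cells (ILC2s), tissue lymphocytes without antigen receptors that answer the epithelial alarmin IL-33 with type 2 cytokines. It comprised 8 genes, Gimap1, Gimap3, Gimap4, Gimap5, Gimap6, Gimap7, Gimap8 and Gimap9, of 55413 genes in the bulk table and 15083 in the single-cell table. The family was chosen by the measured Gimap3 level of the single cells, which was lower with IL-33 than with PBS, so that contrast and the one of IL-33 plus dopamine against the same PBS cells are described without a test. Bulk full-length RNA libraries came from female wild type C57BL/6 mice given IL-33 through the nose on 3 consecutive days, together with dopamine in 3 libraries and with its vehicle PBS in 3, each made from 2000 sorted ILC2s. A pool of hashtag-labelled single cells came from male mice of the same strain and genotype, and its cell table gives hashtags 6, 7 and 8 to IL-33 plus dopamine (3924 cells), hashtags 3, 4 and 5 to IL-33 (4093 cells) and hashtags 1 and 2 to PBS (1059 cells). The PBS cells, which had no IL-33, appear in the cell table alone and not in the sample labels. Every bulk library carried IL-33, so the bulk data hold no baseline without it. The sexes differ between the assays, and dopamine was delivered to whole animals, so values refer to ILC2s sorted from treated lungs.

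GIMAP proteins are GTP-binding proteins of lymphocytes that sit on the membranes of mitochondria, the endoplasmic reticulum, lysosomes and the Golgi, and their genes lie side by side in vertebrate genomes. In mice and rats, loss of Gimap5 leads to a loss of T cells, and some members bind proteins of the BCL2 family, which set the threshold for apoptosis. Gimap6 has been tied to autophagy through an ATG8 protein, and mouse Gimap3 affects how mitochondrial DNA variants segregate in blood cells.

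The 8 genes spanned 123.6 kb of mouse chromosome 6 (chr6:48647234-48770851, GRCm38, GENCODE M21) in the order Gimap8, Gimap9, Gimap4, Gimap6, Gimap7, Gimap1, Gimap5 and Gimap3. Gimap6 and Gimap3 lie on the minus strand and the other members on the plus strand. Gimap3 (chr6:48764464-48770851) and its neighbour Gimap5 (chr6:48746197-48754210) are near-copies: their coding sequences matched at 90.4% of 895 aligned bases, and the next pair outside the longer Gimap8, Gimap3 and Gimap6, matched at 67.9%. Over whole transcripts, 7.52% of the 50-base stretches of Gimap3 also occurred in Gimap5, so the split of reads between these 2 genes is uncertain. The reads were longer than 50 bases, and stretches of their full length were not compared. Reads of Gimap1 and Gimap7 could likewise be shared with the read-through gene Gm28053, which held 4.78% and 1.39% of their 50-base stretches and 2.50% of those of Gimap5. Gimap1os lies antisense to Gimap1. No source used here states which strand was counted, so whether reads from the overlap of those genes were told apart is unknown.

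The promoters of Gimap3, Gimap5 and Gimap8 are shown because these 3 genes had lower levels in every IL-33 hashtag than in both PBS hashtags. Each window runs 5′ to 3′ on the strand of its gene from 250 bases before to 50 bases after the start in RefSeq (GRCm38.p6). Capitals mark the ETS core GGAAGT, on either strand, since ETS factors are lymphocyte transcription factors. The windows are chr6:48770802-48771101 (minus strand), chr6:48745947-48746246 (plus strand) and chr6:48646984-48647283 (plus strand).
Gimap3: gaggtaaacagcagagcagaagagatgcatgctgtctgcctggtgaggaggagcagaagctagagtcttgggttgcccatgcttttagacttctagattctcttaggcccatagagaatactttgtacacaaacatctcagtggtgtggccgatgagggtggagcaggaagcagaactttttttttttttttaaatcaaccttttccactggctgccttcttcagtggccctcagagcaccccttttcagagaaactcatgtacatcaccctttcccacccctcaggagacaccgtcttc
Gimap5: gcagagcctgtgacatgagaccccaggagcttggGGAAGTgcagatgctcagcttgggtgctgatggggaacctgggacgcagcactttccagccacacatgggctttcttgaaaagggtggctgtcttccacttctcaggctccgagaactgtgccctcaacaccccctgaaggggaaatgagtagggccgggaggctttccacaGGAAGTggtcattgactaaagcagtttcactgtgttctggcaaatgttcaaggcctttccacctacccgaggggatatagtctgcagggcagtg
Gimap8: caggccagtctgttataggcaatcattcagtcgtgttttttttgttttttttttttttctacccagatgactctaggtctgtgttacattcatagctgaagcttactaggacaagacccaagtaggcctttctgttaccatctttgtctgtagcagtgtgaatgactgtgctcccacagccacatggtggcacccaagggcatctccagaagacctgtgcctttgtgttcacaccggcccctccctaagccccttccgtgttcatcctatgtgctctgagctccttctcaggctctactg
Gimap5 held the ETS core at positions -216 and -44 from its start, and the windows of Gimap3 and Gimap8 held none of the 5 motifs searched. All 8 genes matched a window, and Gimap8 matched 2, which gave 9 windows. The ETS core occurred in 4 of the 9 (Gimap1, Gimap5, Gimap6 and Gimap9), against 23.8% of 32851 mouse promoters. TGTGGT, a RUNX core, occurred in 3 (Gimap1, Gimap4 and Gimap7), against 16.8% of promoters. The AP-1 motifs TGACTCA and TGAGTCA (5.2% of promoters), the cAMP response element core TGACG (20.8%) and the GATA motif AGATAA (11.2%) were found in none of the 9. Each motif was searched on both strands. A match is a description of letters and does not show a bound factor, and a missing match says only that these letters are not in this window.

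The cells carried the markers of ILC2s. Gata3, the transcription factor of the lineage, had a unique molecular identifier (UMI, a counted RNA molecule) in 89.7% of the 9076 cells, and Il1rl1, the IL-33 receptor gene, in 92.2%. The T cell genes Cd3e and Trac had one in 1.53% and 3.78%, and the myeloid gene Lyz2 in 0.253%, and the fibroblast gene Col1a1, the endothelial gene Cdh5 and the B cell gene Cd79a had no row in the single-cell table. Hashtag totals ran from 1397576 to 9268932 UMIs, with median depths of 4201 to 5692 UMIs per cell. The bulk table gives TPM (the length-corrected share of a transcript in its library), and the depth behind it is unknown. It listed 11502 to 11745 genes with TPM of at least 1 in dopamine libraries and 9822 to 11384 in PBS libraries. PBS library 2 had the lowest number (9822), PBS library 3 had 10525, and PBS library 1, at 11384, was nearest to the dopamine libraries. The bulk values of the family are given below with and without PBS library 2. In bulk RNA, fewer cells of a type and less RNA per cell cannot be told apart.

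The family was widely transcribed in ILC2s. At least 1 UMI of a GIMAP gene was found in 95.1% of the 9076 cells, and 3 cells held UMIs of all 8 genes. Cells with UMIs of 2 or 3 members made up 26.1% and 24.4%. Single members, whose capture also depends on the 3′ end of each gene, were seen in between 3.01% (Gimap7) and 58.6% (Gimap3) of cells, with 284 and 10737 UMIs in all. The sorted pool held no cell type that should lack these genes, and the share for Lyz2 above is that of a gene ILC2s are not known to use. Shares depend on depth, so each cell was also thinned to 2000 UMIs, which left out 1, 2 and 1 cells of IL-33 plus dopamine, IL-33 and PBS. The thinned share with any GIMAP UMI was then 76.6% ± 5.91 (SD, n = 3) with IL-33 plus dopamine, 76.3% ± 0.664 (n = 3) with IL-33 and 80.2% ± 6.64 (n = 2) with PBS, and the unthinned shares were 95.5%, 95.1% and 95.3%. The difference of 0.308 percentage points between IL-33 plus dopamine and IL-33 lay within the spread between hashtags (exact two-sided permutation p = 1, where 3 against 3 hashtags give no p under 0.1).

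The length-corrected TPM allows the members to be ranked within the bulk libraries. With IL-33 plus dopamine, Gimap6 averaged 255 ± 33.9 TPM, Gimap3 209 ± 45.6, Gimap1 189 ± 16.3 and Gimap5 169 ± 33.7 (SD, n = 3). Gimap6 stood above Gimap3 in every dopamine library. The order of Gimap3 and Gimap1, and that of Gimap1 and Gimap5, differed between dopamine libraries. Gimap4 followed at 96.5 ± 35.6, Gimap9 at 46.3 ± 3.07, Gimap8 at 16.3 ± 2.97 and Gimap7 at 14.8 ± 7.94 TPM. With IL-33 plus PBS the order was Gimap1 at 204.5 ± 29.3 TPM, Gimap5 at 116 ± 21.6, Gimap6 at 98.2 ± 59.4 and Gimap3 at 88.4 ± 21.9 (n = 3). Gimap9 at 35.0 ± 12.7, Gimap4 at 30.4 ± 19.8, Gimap7 at 10.2 ± 5.35 and Gimap8 at 5.09 ± 4.22 TPM came after. Gimap1 stood above Gimap5, and Gimap5 above Gimap3, in every PBS library, whereas Gimap6 lay below both Gimap5 and Gimap3 in PBS libraries 1 and 2 and above both in PBS library 3.

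The single cells allow the response to IL-33 itself to be described, which is the contrast that led to the choice of the family. Gimap3, an outer mitochondrial and endoplasmic reticulum membrane GTPase, had 184.1, 203.0 and 183.6 CPM (UMIs scaled to the same total in every hashtag) in IL-33 hashtags 3, 4 and 5, and 362.8 and 268.0 CPM in PBS hashtags 1 and 2. All 3 IL-33 hashtags lay below both PBS hashtags, with a ratio of the means of 0.603. That ratio stands on a log2 scale at -0.73, and at -0.49 without PBS hashtag 1, which had the highest level and the fewest cells (311). With IL-33 plus dopamine, Gimap3 had 274.4, 163.4 and 294.9 CPM in hashtags 6, 7 and 8, against the same PBS hashtags a ratio of 0.774. Hashtags 6 and 8 lay inside the PBS range, and hashtag 7 lay below all 3 IL-33 hashtags.

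Gimap5, the lymphocyte survival factor that resembles Gimap3, had 90.2, 105.2 and 101.8 CPM with IL-33 and 149.5 and 113.7 CPM with PBS (ratio 0.753). Gimap8, the largest member with repeated GTPase domains, had 75.0, 75.2 and 73.5 CPM with IL-33 and 89.4 and 79.8 CPM with PBS (ratio 0.881). Neither gene overlapped between those groups. Without PBS hashtag 1 their log2 ratios were -0.20 and -0.10, against -0.41 and -0.18 with it. Gimap1, which mature T and B cells of mice need, lay the other way, with 182.7, 171.9 and 175.9 CPM with IL-33 and 167.4 and 139.7 CPM with PBS (ratio 1.15). In total, 3 of 8 members were lower and 1 was higher in IL-33 hashtags without overlap, where 13.6% and 20.9% of 10506 genes were. Since this contrast chose the family, nothing is read from these counts. With IL-33 plus dopamine, 0 of 8 members lay below the PBS hashtags without overlap, where 9.09% of 10612 genes did, and both contrasts share the PBS hashtags.

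The remaining members overlapped between IL-33 and PBS. Gimap6, the autophagy-linked member, averaged 208 ± 13.9 CPM with IL-33 plus dopamine, 201 ± 1.92 with IL-33 and 229 ± 78.2 with PBS (SD, n = 3, 3 and 2). Its PBS hashtags, at 284.8 and 174.2 CPM, lay on either side of all 6 others. Gimap4, which speeds apoptosis of T cells in rodents, averaged 24.6 ± 2.85, 28.8 ± 1.84 and 24.3 ± 7.06 CPM in the same order. Gimap9 averaged 54.6 ± 4.63, 49.7 ± 2.91 and 51.9 ± 8.56 CPM, and Gimap7, a GTPase that dimerises when it binds GTP, 5.34 ± 0.617, 6.34 ± 0.55 and 5.75 ± 0.974 CPM. The 8 members summed to 943.2, 748.7 and 969.8 CPM with IL-33 plus dopamine, 811.9, 847.8 and 819.2 CPM with IL-33 and 1148 and 845.7 CPM with PBS. The IL-33 hashtags kept within a narrow band, the dopamine hashtags lay on both sides of it, and PBS hashtag 1 lay above all others.

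**Figure D1:**
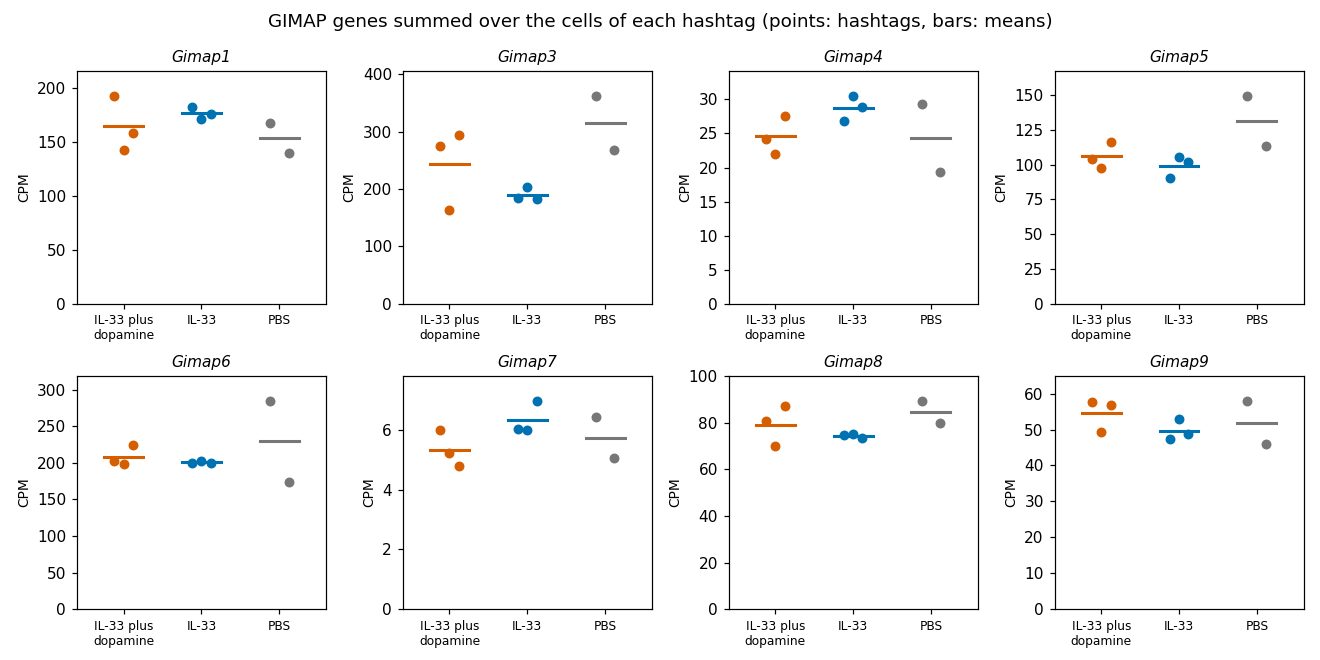
CPM of each GIMAP gene (y axes, from 0, a scale for each gene) in hashtags of IL-33 plus dopamine (n = 3), IL-33 (n = 3) and PBS (n = 2); points are hashtags and bars are means. Gimap3 sits at 184.1, 203.0 and 183.6 CPM in IL-33 hashtags, below both PBS hashtags, and its dopamine hashtags spread from 163.4 to 294.9 CPM.

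The cell make-up of the hashtags differed alongside. Cluster 5 of the 6 clusters deposited by the authors, where Gimap3 was lowest, held 22.0%, 8.88% and 11.7% of the cells of IL-33 hashtags and 2.57% and 3.07% of those of PBS hashtags. Weighting the 6 clusters equally, an alternative added after seeing the data, gave Gimap3 207, 195 and 187 CPM with IL-33 and 351 and 237 CPM with PBS. The ratio was then 0.669, and Gimap3, Gimap5 and Gimap8 still lay lower in IL-33 hashtags without overlap. Within clusters, the IL-33 hashtags lay below both PBS hashtags for Gimap3 in clusters 0, 1, 3, 4 and 5, with ratios of 0.582 to 0.702, and overlapped in cluster 2 (ratio 0.778). The values in cluster 5 rest on 25 Gimap3 UMIs in 8 and 23 cells of the PBS hashtags.

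Within the single cells, IL-33 plus dopamine was set against IL-33, which asks whether dopamine changes the IL-33-activated cells. This contrast shares IL-33 hashtags 3, 4 and 5 with the one that chose the family. Choosing on a low Gimap3 level in those hashtags favours a positive difference for Gimap3 here, so its fit is given as a description and nothing is read from its p. By edgeR's quasi-likelihood test with Benjamini-Hochberg adjustment over 10559 genes, 0 of 8 members passed at an adjusted p under 0.05, and 0 had an unadjusted p under 0.05. Over all genes 3 passed, which is 0.0284%, and 1000 had an unadjusted p under 0.05. DESeq2, run as an alternative, passed 26 genes and likewise no member.

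Gimap3 had the largest fold change of the family by edgeR, a log2 fold change of 0.37 ± 0.17 (SE, edgeR adjusted p = 0.528, higher than every IL-33 hashtag in 2 of 3 dopamine hashtags). This value depended on which dopamine hashtags were kept, and as stated above nothing is read from its p. Without hashtag 7 the log2 fold change was 0.59 (edgeR adjusted p = 0.0382, a setting under which 16 genes passed). Without hashtag 8 it was 0.18 (adjusted p = 0.862). The thinned share of cells with a Gimap3 UMI was 35.4% ± 6.94 with IL-33 plus dopamine, 30.7% ± 1.13 with IL-33 and 43.2% ± 5.37 with PBS (SD, n = 3, 3 and 2), and the unthinned shares were 58.9%, 57.2% and 65.0%. Hashtag 7 was also the lowest of the 3 dopamine hashtags for Gimap3 in each of the 6 clusters, for example at 242.7 CPM in cluster 0, where hashtags 6 and 8 had 339.3 and 395.8 CPM.

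The fold changes of the other members were smaller and of both signs. Gimap9 had a log2 fold change of 0.14 ± 0.10, Gimap5 of 0.10 ± 0.10, Gimap8 of 0.09 ± 0.10 and Gimap6 of 0.06 ± 0.08 (SE, edgeR adjusted p = 0.638, 0.766, 0.793 and 0.851). Gimap7 was at -0.25 ± 0.18, Gimap4 at -0.22 ± 0.12 and Gimap1 at -0.10 ± 0.10 (edgeR adjusted p = 0.679, 0.563 and 0.765). Gimap7 was the single member whose dopamine and IL-33 hashtags did not overlap, with 6.00 CPM as the highest dopamine value and 6.01 CPM as the lowest IL-33 value on 31 to 40 and 35 to 60 UMIs per hashtag; 6.93% of genes lay lower in this way, and 7.81% higher. The thinned share of cells with a Gimap4 UMI was 4.74% ± 0.559 with IL-33 plus dopamine and 5.77% ± 0.605 with IL-33 (exact two-sided permutation p = 0.1, the smallest possible with n = 3 each), and the unthinned shares were 11.2% and 13.9%. Gimap4 had 151 to 179 UMIs in dopamine hashtags and 178 to 249 in IL-33 hashtags.

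Levels within the 6 clusters were uneven, which is a description since the clusters were built from the same cells. Gimap3 had 320.8 CPM in cluster 0 (2289 cells) and 299.9 CPM in cluster 4 (1071 cells), and 97.4 CPM in cluster 5 (913 cells). Gimap6 was highest at 288.8 CPM in cluster 2 (1671 cells) and lowest at 108.4 CPM in cluster 1 (1934 cells), where Gimap3 stood at 202.9 CPM. Clusters 1 and 5 thus shared a low Gimap6 level, at 108.4 and 148.8 CPM, and differed in Gimap3. Gimap1 was highest in cluster 4, at 264.0 CPM, and stood at 114.4 CPM in cluster 3 (1198 cells) and 136.0 CPM in cluster 5. Gimap5 ran from 77.8 CPM in cluster 1 to 135.3 CPM in cluster 3, and Gimap4 from 25.1 to 28.2 CPM. These levels pool the cells of all hashtags, which contribute unequally to each cluster. With the 8 hashtags weighted equally, Gimap1 had 112.3 CPM in cluster 5 and 112.4 CPM in cluster 3, so their order is not read, and the highest and lowest clusters of Gimap3, Gimap5 and Gimap6 were as above. The summed family was 1130 CPM in cluster 4 and 589 CPM in cluster 5.

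Dopamine was tested against IL-33 within each cluster. No member passed in any of the 6 clusters, where 0.0388%, 0.075%, 0%, 0%, 0.0548% and 0.266% of genes passed in clusters 0 to 5 by edgeR with Benjamini-Hochberg adjustment. The 0 passing genes of clusters 2 and 3 stood beside 417 and 350 genes with an unadjusted p under 0.05, and Gimap7 had enough counts to be tested in cluster 4 alone. Gimap1 in cluster 5 came closest: 123.6, 105.7 and 29.9 CPM with IL-33 plus dopamine, against 141.0, 176.8 and 152.6 CPM with IL-33. The dopamine hashtags lay below the IL-33 hashtags, and the lowest of them, hashtag 8, rested on 4 UMIs in 26 cells. The log2 fold change was -0.59 ± 0.18 (SE, edgeR adjusted p = 0.216). Gimap6 in cluster 5 also lay lower with dopamine without overlap (-0.37 ± 0.14, edgeR adjusted p = 0.443), as did Gimap7 in cluster 4. Gimap8 lay higher without overlap in clusters 0 and 4. The share of all genes without overlap within a cluster is not given here, so nothing is read from these. A test of whether the change with dopamine differed between clusters, added after seeing the data, passed 0.0686% of 8744 genes and no member; Gimap1 had the lowest value (unadjusted p = 0.0518, adjusted p = 0.834 by edgeR).

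**Figure D2:**
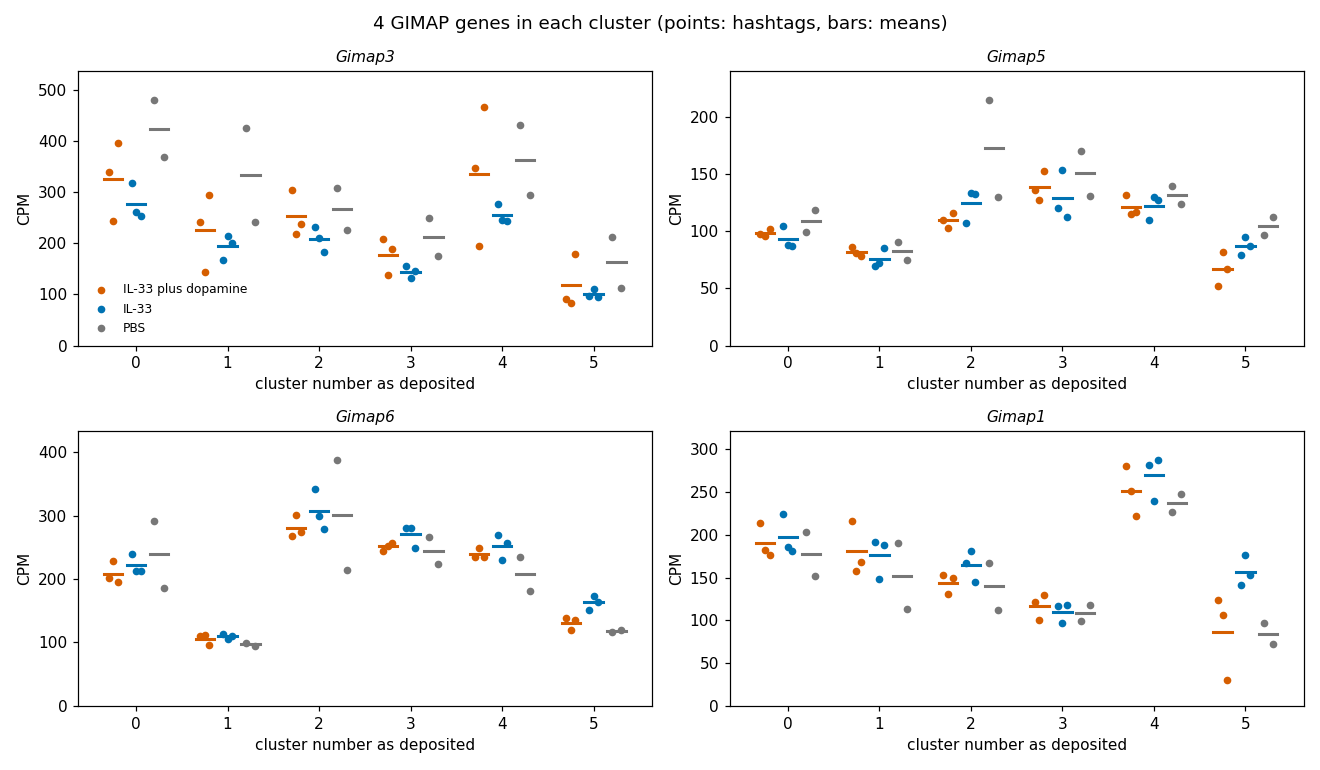
CPM of Gimap3, Gimap5, Gimap6 and Gimap1 (y axes, from 0, a scale for each gene) in the 6 clusters as numbered by the authors (x axis), with IL-33 plus dopamine, IL-33 and PBS side by side; points are hashtags and bars are means. Gimap3 is lowest in cluster 5 (97.4 CPM over all cells) and Gimap6 in cluster 1 (108.4 CPM).

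In the bulk libraries, dopamine was set against PBS on the background of IL-33. Because the deposited TPM place the median of all 11222 tested genes at a log2 fold change of 0.49, changes are given as the fitted log2 fold change and relative to that median. By limma on log2(TPM + 1) with Benjamini-Hochberg adjustment, 0 of 8 members passed, although all 8 passed the filter on low values and 4 had an unadjusted p under 0.05. Over all genes 4 passed, which is 0.0356%, and 2706 had an unadjusted p under 0.05. Each limma p here and below belongs to the fitted log2 fold change against 0, since no relative value was tested.

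Gimap3 had 177.46, 261.29 and 188.25 TPM in dopamine libraries 1 to 3, against 91.46, 65.19 and 108.68 TPM in PBS libraries 1 to 3. Every dopamine library lay above every PBS library, in the deposited TPM and after median-of-ratios scaling. The means differed by a factor of 2.36, with a log2 fold change of 1.24 ± 0.27 (SE) that stood 0.75 above the median of all genes (limma adjusted p = 0.0832). Over the alternatives the relative value ran from 0.58 to 1.13 and the adjusted p from 0.0350 to 0.242, and it was 0.72 without PBS library 2 (adjusted p = 0.198). The fitted change of Gimap3 passed solely when PBS library 1 was left out, a setting under which 1536 genes passed.

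Gimap6 had 217.09, 282.50 and 265.09 TPM with dopamine, against 64.99, 62.84 and 166.80 TPM with PBS. The log2 fold change was 1.51 ± 0.36 (SE), or 1.02 relative to all genes (limma adjusted p = 0.0832). PBS library 3 stood well above the other 2, and after median-of-ratios scaling the groups overlapped. Without PBS library 3 the fitted change passed (limma adjusted p = 0.0167), as 90 genes did, and the relative value was 1.50. Without PBS library 1 the relative value was 0.63 (adjusted p = 0.0599), and without PBS library 2 it was 0.96 (adjusted p = 0.242).

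Gimap4 had 92.07, 134.08 and 63.35 TPM with dopamine, against 14.71, 23.76 and 52.61 TPM with PBS (log2 fold change 1.76 ± 0.47, 1.27 relative to all genes, limma adjusted p = 0.0979). Gimap8 had 19.48, 15.80 and 13.60 TPM with dopamine, against 9.92, 2.10 and 3.24 TPM with PBS (1.71 ± 0.56, 1.22 relative to all genes, adjusted p = 0.128). Both were higher in all 3 dopamine libraries, and scaling by median-of-ratios kept the groups apart for Gimap8 and not for Gimap4. With that scaling, the limma adjusted p was 0.198 for Gimap3, 0.205 for Gimap6, 0.212 for Gimap4 and 0.152 for Gimap8. Without PBS library 1, the fitted change of Gimap8 passed (limma adjusted p = 0.0245). Its relative value was then 1.57, and that of Gimap4 was 0.68 (adjusted p = 0.0702). Without PBS library 3, Gimap4 stood at 1.77 (adjusted p = 0.0510). Without PBS library 2, the relative values were 1.36 for Gimap4 and 1.01 for Gimap8 (limma adjusted p = 0.258 and 0.326).

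The other 4 members overlapped between the groups. Gimap1 had 171.61, 192.29 and 203.77 TPM with dopamine, against 192.01, 237.97 and 183.52 TPM with PBS, which is -0.11 ± 0.21 as a log2 fold change and -0.60 relative to all genes (limma adjusted p = 0.771). After median-of-ratios scaling its dopamine libraries all lay below its PBS libraries. Gimap5 had 174.25, 199.45 and 132.70 TPM with dopamine, against 99.14, 108.99 and 140.53 TPM with PBS (0.53 ± 0.25, or 0.04 relative to all genes, adjusted p = 0.227). Gimap5 therefore sat at the median of all genes while its near-copy Gimap3 stood above it. Gimap9 had 49.32, 46.52 and 43.18 TPM with dopamine, against 38.77, 20.92 and 45.38 TPM with PBS (-0.03 relative to all genes). Gimap7 had 19.29, 19.44 and 5.61 TPM with dopamine, against 5.83, 8.59 and 16.17 TPM with PBS (-0.07 relative to all genes). Without PBS library 2, the relative values were -0.31 for Gimap1, 0.17 for Gimap5, -0.18 for Gimap9 and 0.05 for Gimap7. The relative sign of Gimap5, Gimap7 and Gimap9 changed between alternatives and is not read.

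**Figure D3:**
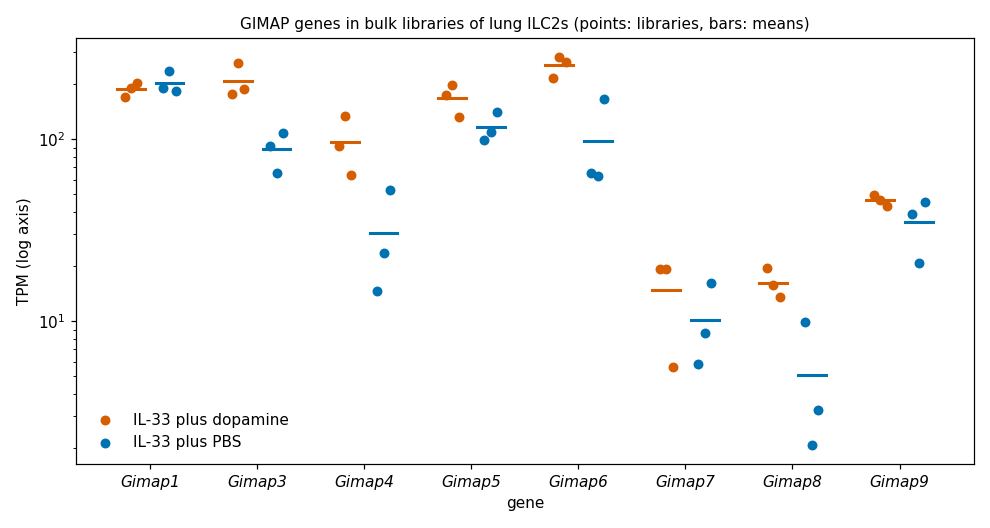
TPM of each GIMAP gene (log y axis) in bulk libraries of IL-33 plus dopamine and IL-33 plus PBS (n = 3 each); points are libraries and bars are means. Gimap3, Gimap4, Gimap6 and Gimap8 lie higher in every dopamine library, and Gimap1 overlaps at about 200 TPM.

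Summed over the family, dopamine libraries held 920.57, 1151.37 and 915.55 TPM, against 516.83, 530.36 and 716.93 TPM in PBS libraries. Those sums carry the shift of all genes in the deposited TPM. The median-of-ratios factors were 1.20, 1.24 and 1.27 for dopamine libraries 1 to 3 and 1.16, 0.64 and 0.82 for PBS libraries 1 to 3. Divided by these factors, the sums overlapped between the groups. In the deposited TPM, 4 of 8 members were higher and 0 lower without overlap, where 23.5% and 6.57% of all genes were. After median-of-ratios scaling, which puts the median of all genes at 0.06, 2 of 8 members were higher (Gimap3 and Gimap8) and 1 lower (Gimap1), where 13.4% and 15.2% of genes were. The median of the 8 members stood 0.39 above that of all genes, with 5 members above it, where 50% of all genes are by definition.

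Many transcripts of other lymphocytes lay higher with dopamine in the bulk libraries alongside the family, as did several members. Trac, the T cell receptor alpha constant gene, had 77.47, 149.36 and 121.14 TPM with dopamine, against 14.39, 10.49 and 39.18 TPM with PBS. Cd3e, a subunit of the T cell receptor complex, had 44.75, 170.39 and 104.76 TPM with dopamine, against 4.33, 6.68 and 43.59 TPM with PBS. Neither gene overlapped between groups, and neither passed (limma adjusted p = 0.0832 and 0.0960). The T cell list summed to 1851 to 2457 TPM with dopamine and 1246 to 1837 TPM with PBS, with 8 of 11 tested members above the median of all genes. Trbc1 and Trbc2, the T cell receptor beta constant genes that ILC2s are known to transcribe, make up much of that sum. Cd8a was at 0.70 TPM in dopamine library 2 and at 0 in the other libraries. Cd4, the coreceptor gene of helper T cells, was at 28.66 TPM in dopamine library 2, 0.89 TPM in PBS library 1 and 0 in the others. The myeloid gene Lyz2 had 0, 389.78 and 0.76 TPM in dopamine libraries 1 to 3, against 114.92, 8.73 and 25.16 TPM in PBS libraries 1 to 3. The macrophage and monocyte list summed to 72.2 to 724 TPM with dopamine and 21.2 to 157 TPM with PBS. Of its 4 tested genes, 1 lay above the median of all genes. Dopamine library 2 was also the highest for Cd3e, Trac, Lyz2, Gimap3, Gimap4 and Gimap6. Without it, the relative values were 0.58 for Gimap3, 1.01 for Gimap4, 0.95 for Gimap6 and 1.24 for Gimap8 (limma adjusted p = 0.242, 0.267, 0.245 and 0.293).

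The NK cell and ILC1 list summed to 618 to 1215 TPM with dopamine and 148 to 571 TPM with PBS, with 9 of 9 above the median. The ILC3 list summed to 124 to 299 TPM with dopamine and 21.3 to 112 TPM with PBS, with 7 of 7 above the median and a list median 1.65 above all genes. The B cell list summed to 106 to 291 TPM with dopamine and 54.4 to 147 TPM with PBS, with 4 of 5 above the median. The ILC2 list lay the other way, with 9 of 13 below the median of all genes and a list median of -0.30, and summed to 3424 to 5234 TPM with dopamine and 3209 to 5208 TPM with PBS. Higher without overlap in the deposited TPM were 4 of 11 T cell, 7 of 9 NK cell and ILC1, 5 of 7 ILC3, 0 of 5 B cell and 4 of 13 ILC2 genes, where 23.5% of all genes were. After median-of-ratios scaling these counts were 2, 3, 1, 0 and 2, where 13.4% of all genes were, and 5 ILC2 genes were lower, where 15.2% of all genes were. No gene of these lists passed in the bulk. T cells, B cells and NK cells are known to express GIMAP genes, and the part of such cells in the bulk GIMAP values was not tested.

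The same lists can be read in the single cells. The NK cell and ILC1 list summed to 277 to 304 CPM with IL-33 plus dopamine and 259 to 282 CPM with IL-33. Of its 10 tested genes, 0 passed. For the ILC3 list the sums were 7.56 to 24.8 and 6.69 to 25.9 CPM (0 of 3 passed). For the B cell list they were 68.4 to 78.7 and 71.0 to 97.4 CPM (0 of 2 passed). Those of the ILC2 list were 8767 to 10382 and 8462 to 8995 CPM (0 of 13 passed). The T cell list summed to 1247 to 1271 CPM with IL-33 plus dopamine and 1110 to 1387 CPM with IL-33, and 1 of its 8 tested members passed, lower with dopamine. That gene was Cd3g, named after its value was seen, with 49.8, 53.0 and 44.9 CPM with IL-33 plus dopamine and 113.5, 93.7 and 102.8 CPM with IL-33 (edgeR adjusted p = 0.0014, log2 fold change -1.07). In the bulk, Cd3g lay the other way in the deposited TPM, with 265.33, 389.62 and 247.51 TPM with dopamine. The PBS libraries had 161.14, 207.98 and 233.37 TPM (0.07 relative to all genes, limma adjusted p = 0.193). Cells with a UMI of a T cell marker gene (606 cells) held 873 CPM of GIMAP transcripts, and the other 8470 cells 859 CPM. The B cell markers sought alongside, Cd79a and Ms4a1, had no row in the single-cell table, so this split of the cells does not cover B cells. Without those 606 cells the log2 fold change of Gimap3 with dopamine was 0.37 and that of IL-33 against PBS -0.75.

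The genes around the family lay on both sides of the median of all genes. Within 500 kb of the cluster lie 52 annotated genes, of which 16 could be tested in the bulk and 13 in the single cells. In the bulk, 7 of the 16 were higher and 1 lower without overlap, where 23.5% and 6.57% of all genes were. Their values relative to all genes ran from -2.58 (Malsu1) to 1.06 (Krba1) with a median of 0.39, and those of the 8 members from -0.60 to 1.27 with a median of 0.39. Tmem176b, a membrane protein gene of immune cells, had 365.14, 525.48 and 550.61 TPM with dopamine, against 230.07, 253.12 and 315.17 TPM with PBS (0.35 relative to all genes, limma adjusted p = 0.0972). Its neighbour Tmem176a had 223.43, 312.82 and 301.88 TPM with dopamine, against 119.77, 153.20 and 211.54 TPM with PBS (0.32 relative to all genes, adjusted p = 0.123). No neighbour passed in either assay. Between members, Gimap1os had 17.95, 26.08 and 12.01 TPM with dopamine, against 7.06, 7.41 and 4.73 TPM with PBS, a difference opposite in direction to that of Gimap1 relative to all genes.

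**Figure D4:**
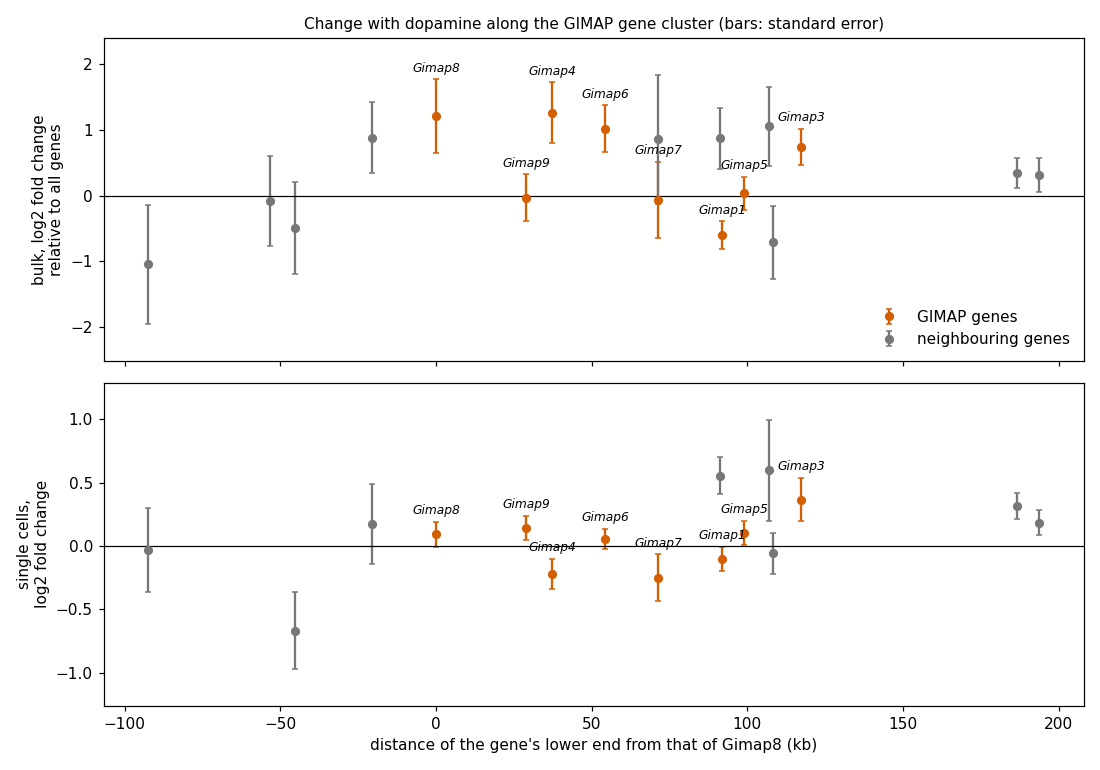
Log2 fold change with dopamine (upper: bulk, relative to the median of all genes; lower: single cells, against IL-33) of GIMAP genes and of neighbouring genes with a value, by distance from the lower end of Gimap8 in kb; bars are standard errors. Gimap8, Gimap4, Gimap6 and Gimap3 stand 0.75 to 1.27 above all genes in the bulk, with lower members in between, and all 8 lie between -0.25 and 0.37 in the single cells.

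Genes that work with GIMAP proteins were read from lists by function. Of the BCL2 family, 0 of 15 tested genes passed in the bulk, 6 were higher and 1 lower without overlap, where 23.5% and 6.57% of all genes were, and the median stood 0.19 above all genes. After median-of-ratios scaling 2 were higher and 3 lower, where 13.4% and 15.2% of all genes were. Bcl2a1b, an anti-apoptotic member, had 172.19, 306.70 and 216.02 TPM with dopamine, against 64.40, 55.33 and 126.70 TPM with PBS (1.05 relative to all genes, limma adjusted p = 0.0832). Bmf, a pro-apoptotic member, had 8.30, 7.76 and 2.90 TPM with dopamine, against 0.43, 0.51 and 0 TPM with PBS (adjusted p = 0.0832). Bcl2l11, which encodes the pro-apoptotic BIM, stood 1.05 above all genes (adjusted p = 0.186). In the single cells 0 of 14 passed, and the smallest p belonged to the pro-apoptotic Bik, with 11.0 ± 0.953 CPM with IL-33 plus dopamine and 15.4 ± 1.74 CPM with IL-33 (edgeR adjusted p = 0.377).

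Of 15 ATG8 and autophagy genes, 0 passed in either assay, 3 were higher in the bulk without overlap (23.5% of all genes were) and the median stood at -0.01 relative to all genes. Sqstm1, an autophagy cargo receptor, had 1215.80, 1273.61 and 1269.77 TPM with dopamine, against 1022.76, 392.00 and 757.78 TPM with PBS (0.40 relative to all genes, limma adjusted p = 0.126). The single-cell median of the list was 0.00, and the smallest p was that of Atg7, with 19.8 ± 3.57 CPM with IL-33 plus dopamine and 16.2 ± 3.21 CPM with IL-33 (edgeR adjusted p = 0.613).

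Genes of resting lymphocytes, a state in which GIMAP genes are known to be high in T cells, formed the longest functional list. By count they had the most members without overlap among the functional lists. Their median stood 0.70 above all genes, and that of the interferon-induced GTPases, described further on, stood 0.99 above. Of 19 quiescence genes, 13 were higher and 0 lower in the bulk without overlap, where 23.5% and 6.57% of all genes were, 16 stood above the median of all genes, and 0 passed. With median-of-ratios scaling 8 were higher and 1 lower, where 13.4% and 15.2% of all genes were. Il7r, the survival receptor for IL-7, had 307.06, 357.87 and 418.79 TPM with dopamine, against 163.77, 74.37 and 82.07 TPM with PBS (1.34 relative to all genes, limma adjusted p = 0.0703). Satb1, a chromatin organiser, had 48.91, 67.26 and 50.04 TPM with dopamine, against 17.54, 6.99 and 17.56 TPM with PBS (1.50 relative to all genes, adjusted p = 0.0832), and S1pr1, the receptor for exit from tissue, stood 2.17 above all genes (adjusted p = 0.0832).

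In the single cells the quiescence list had a median of 0.10 and 0 of 19 passed. Satb1 had the smallest p, with 217 ± 33.9 CPM with IL-33 plus dopamine, 153 ± 21.5 CPM with IL-33 and 203 ± 24.0 CPM with PBS (edgeR adjusted p = 0.297). Klf2, a quiescence factor, had 104 ± 27.3, 76.8 ± 5.31 and 85.4 ± 6.42 CPM in the same groups (adjusted p = 0.411). Il7r, with 1260 ± 91.6, 1230 ± 96.9 and 1280 ± 66.6 CPM, varied within its spread.

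Interferon-induced GTPases, a different branch of immune GTPases, were set beside the family. Of 12 tested in the bulk, 0 passed and 7 were higher without overlap, where 23.5% of all genes were, with a median 0.99 above all genes. After median-of-ratios scaling 6 were higher, where 13.4% of all genes were. Gbp6 had 48.66, 60.41 and 41.08 TPM with dopamine, against 15.88, 3.45 and 14.15 TPM with PBS (1.78 relative to all genes, limma adjusted p = 0.0832). The single-cell median of that list was -0.06, with 0 of 11 passing and Irgm1 having the smallest p (7.15 ± 1.16 CPM with IL-33 plus dopamine, 8.77 ± 1.09 CPM with IL-33, edgeR adjusted p = 0.611).

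Among 2486 genes with a mean of at least 50 CPM, with the family left out, the levels over the 8 hashtags most like those of Gimap3 by Pearson's r on log2(CPM + 1) were those of Cnot6l (0.96), Chmp1b (0.96), Snhg12 (0.96), Chd2 (0.95) and Inpp4b (0.94). Cnot6l, a subunit of the complex that shortens poly(A) tails, had 300.4, 226.1 and 314.2 CPM with IL-33 plus dopamine, 254.6, 280.9 and 256.9 CPM with IL-33 and 340.6 and 320.4 CPM with PBS. Like Gimap3, it was lowest in hashtag 7 and highest in hashtag 1. Within the family, r with Gimap3 was 0.97 for Gimap8, 0.86 for Gimap5, 0.65 for Gimap9, 0.60 for Gimap6, 0.06 for Gimap4, 0.02 for Gimap1 and -0.14 for Gimap7. The values describe 8 hashtags that share a library and whose groups set much of the spread, and reads shared between Gimap3 and Gimap5 may enter theirs.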

How the data were processed

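Lung ILC2s of wild type C57BL/6 mice were measured in 6 bulk Smart-Seq2 libraries and in 1 hashtag-labelled 10x pool. Per the submitters' processing notes, the tools were cutadapt 2.10, STAR 2.7.5c, RSEM 1.3.3, Cell Ranger 6.1.1 and Seurat 4.0.2 on mm10; their settings, the strand and the handling of doublets are not stated in these sources. No doublets were called here. The bulk values are TPM as deposited by the authors, with no read counts. The single-cell values are UMI counts as deposited, for 9076 distinct barcodes of a single library, with the authors' hashtag, treatment and cluster per cell. The percent of mitochondrial UMIs, deposited in the cell table, reached 7.50% at most.

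Bulk genes reaching 1 TPM in 3 or more of 6 libraries were fitted on log2(TPM + 1) with limma 3.58.1 (trend). UMI counts were summed per hashtag and tested with edgeR 4.0.16 (TMM, filterByExpr, quasi-likelihood); DESeq2 1.42.0 was an alternative (R 4.3.3). Adjustment was Benjamini-Hochberg over all genes tested, at a threshold of 0.05. Both fits were also run on simulated data with planted changes and independent noise for each gene. Those data held no shift of all genes like that of the bulk TPM, so they do not bear on it. Exact permutation tests, two-sided, served for shares of cells. The labels call the bulk libraries biological replicates; they do not state that a hashtag is a single mouse, so p-values over hashtags measure the spread between hashtags, which may be technical. Bulk replicate numbers did not pair the libraries (correlations of deviations 0.0186, -0.0710 and -0.00177).

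Named were all 8 members, up to 3 genes of each functional list by smallest p, the 5 genes most like Gimap3, neighbours within 500 kb and fixed marker genes. The members and lists were chosen with earlier results of these data known. Promoter sequences are from RefSeq on GRCm38.p6, and coordinates from GENCODE M21 on GRCm38. The hashtag antibody library and the cell map coordinates were not used.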

Additional observations from a re-analysis of the deposited data

How the results depend on the processing

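Bulk genes passing numbered 2 with a pseudocount of 5, 0 with no filter (2712 unadjusted), 2 with a mean TPM of at least 5, 21 with quantile normalization (10 higher, 11 lower) and 15 with the replicate block (9 higher, 6 lower), and 0 to 1536 with a library left out: 0 without PBS library 2 (1569 unadjusted), 1536 without PBS library 1, 90 without PBS library 3 and 1 without dopamine library 2. The replicate block passed no member; with it Gimap3 stood at 0.75 (adjusted p = 0.0963). Relative changes of Gimap5 turned to -0.061 with a pseudocount of 0.1 and to -0.069 with median-of-ratios scaling, and ran from -0.25 to 0.23 with a library left out, at -0.015 without dopamine library 1 and -0.085 without dopamine library 2. Gimap7 turned to 0.047 with a pseudocount of 5 and to 0.16 with no filter, and ran from -0.55 to 0.50 with a library left out, at 0.052 without PBS library 2 and 0.32 without PBS library 3. Gimap9 turned to 0.12 with a pseudocount of 5, 0.20 with no filter and 0.043 with quantile normalization, and ran from -0.18 to 0.21 with a library left out, at 0.043 without dopamine library 3. The causes were not tested.

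In the single cells, passing genes numbered 26 with DESeq2, 9 in cells between the 10th and 90th percentile of UMIs and 1 to 16 with a hashtag left out. Within clusters 0 to 5 those ranges were 0 to 10, 1 to 24, 0 to 8, 0 to 7, 3 to 17 and 1 to 50. With a hashtag left out, the log2 change with dopamine ran from -0.025 to 0.097 for Gimap6 and from -0.0072 to 0.18 for Gimap8, with both low ends without hashtag 8. Apart from these 2 values and Gimap3 without hashtag 7, the 101 other member values under alternatives kept their direction and side of the threshold. The IL-33 to PBS ratio of Gimap3 stood at -0.51 (log2) in cells between the 10th and 90th percentile of UMIs and at -0.93 without PBS hashtag 2. Members lower without overlap in IL-33 than in PBS numbered 3 to 5 with a hashtag left out, and in IL-33 plus dopamine than in PBS 0 to 7; both upper values came without PBS hashtag 2, which leaves 1 PBS hashtag as the sole comparison, and the second count was 1 without hashtag 8. Depth limits Gimap7, at 284 UMIs in all, and the clusters of PBS cells. TPM carry no depth, so no interval for counting error can be given for the bulk values.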
